A study of Mus musculus with 6 samples.

Results

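Immediate early genes are the genes that a cell transcribes first after a stimulus. They were examined here in purified retinal ganglion cells (RGCs) of the mouse, the output neurons of the eye, which project through the optic nerve. The set was 9 genes chosen by name: Fos, Fosb, Junb, Jund, Egr1, Dusp1, Ier2, Btg2 and Atf3. Of the 10361 gene names in the expression table, 8 were these genes, each at a single locus, and all 8 passed the filter on low values. Atf3 was not analysed here. The study sequenced poly-A RNA from 6 libraries of wild-type C57/6NCrl mice, in 3 groups of 2. E18 RGCs came from embryos at day 18, received no vector and were purified on Thy1 antibody without sorting, about 50000 cells. Adult miR-1247 RGCs had received AAV2, a viral vector, that expressed a miR-1247-5p mimic, and adult control RGCs carried AAV2 with a scrambled shRNA mimic and mCherry. Both adult groups were purified on Thy1 and then sorted for mCherry, about 5000 cells from a pool of 10 retinas per condition. Age, vector, sorting and cell number therefore cannot be told apart between E18 and adult libraries. Between the adult groups, vector cannot be told apart from the pool of retinas and its sort. Nothing in the labels says that libraries of a group came from separate animals, so p-values reflect library-to-library spread alone, and that spread may be technical.

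The genes act at several steps of one response. Calcium entry and growth factor receptors activate the ERK kinases and CREB, which switch on promoters that already carry the factors SRF and CREB, without new protein synthesis. Fos and Fosb encode FOS proteins, which pair with the JUN proteins encoded by Jun, Junb and Jund to form the transcription factor AP-1. Egr1 encodes a zinc finger factor induced by neuronal activity. Atf3 encodes a stress-induced factor of the ATF family. Dusp1 encodes a phosphatase that switches off MAP kinases, Btg2 an antiproliferative protein that binds the CCR4-NOT deadenylase, and Ier2 a small nuclear protein. Immediate early genes are also known to be induced while tissue is being dissociated into cells.

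A CRE, the DNA element bound by CREB, is a known feature of many of these promoters, so the sequences before the start site are shown for a pair of genes that were much lower at E18 (Junb and Btg2) and a pair that were not (Fos and Dusp1). Each run is the 250 bases before the start, 5′ to 3′ on the gene's strand, from RefSeq (GRCm38.p6). Capitals mark the CRE core TGACG on either strand, including the full CRE TGACGTCA, in which the cores of both strands overlap.
Fos (chr12:85473640-85473889, plus strand): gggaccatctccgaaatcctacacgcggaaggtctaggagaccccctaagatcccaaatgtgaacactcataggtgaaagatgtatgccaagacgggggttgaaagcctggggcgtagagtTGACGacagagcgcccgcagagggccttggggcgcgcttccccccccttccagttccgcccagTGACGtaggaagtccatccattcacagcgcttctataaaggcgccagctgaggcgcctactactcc
Dusp1 (chr17:26508473-26508722, minus strand): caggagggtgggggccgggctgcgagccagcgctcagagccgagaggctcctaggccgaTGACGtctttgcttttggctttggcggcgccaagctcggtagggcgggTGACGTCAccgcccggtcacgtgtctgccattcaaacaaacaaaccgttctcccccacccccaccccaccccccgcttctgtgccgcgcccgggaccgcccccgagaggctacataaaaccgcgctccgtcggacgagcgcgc
Junb (chr8:84978749-84978998, minus strand): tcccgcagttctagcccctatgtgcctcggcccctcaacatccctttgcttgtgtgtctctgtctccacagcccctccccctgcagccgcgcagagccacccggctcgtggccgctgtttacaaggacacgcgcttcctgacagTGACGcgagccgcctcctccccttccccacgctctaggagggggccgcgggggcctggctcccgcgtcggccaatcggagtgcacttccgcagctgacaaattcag
Btg2 (chr1:134079156-134079405, minus strand): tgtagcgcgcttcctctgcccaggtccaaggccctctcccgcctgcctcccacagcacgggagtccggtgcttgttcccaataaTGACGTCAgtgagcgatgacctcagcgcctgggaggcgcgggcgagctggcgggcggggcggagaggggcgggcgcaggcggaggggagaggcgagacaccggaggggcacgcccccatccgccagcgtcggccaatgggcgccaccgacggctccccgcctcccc
The cores began 129 and 66 bases before the start in Fos and 106 bases before it in Junb. Dusp1 had one 191 bases and a full CRE 143 bases before the start, and Btg2 had a full CRE at 166 bases. RefSeq promoters of 300 bases (250 before and 50 after the start) were matched for 7 of the 9 genes, which were Atf3 and 6 of the 8 analysed genes. None was matched for Egr1 or Ier2. The core was found in 6 of them, against 20.8% of all 32851 such promoters, and the full CRE in 2, against 1.79%. The Sp1 box GGGCGG was found in 5, against 35.7%. Atf3, outside the 8 analysed genes, is counted for both the core and the Sp1 box, and Jund held neither. None of the 7 windows held a CArG box (the SRF element, found in 1.63% of promoters), the AP-1 site TGANTCA (7.81%) or the EGR site GCGTGGGCG (0.61%). These matches are a description of the letters in the window. Promoters of Egr1 and Ier2 and sequence further upstream were not searched, so elements there would be missed.

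The introduced microRNA is given with its seed (bases 2 to 8) in capitals, from RefSeq.
mmu-miR-1247-5p: aCCCGUCCcguucguccccgga
The matching letters GGACGGG occur in the 3′ UTR of 314 of 9455 tested genes (3.32%, canonical GENCODE M39 transcripts). Among the 8 genes, Ier2 alone had such a match, shown with its flanks and the match in capitals.
Ier2 (chr8:85388130-85388159, GRCm39, minus strand): tggaccaccgcgGGACGGGtgggccgctgg

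Libraries were alike within groups (Pearson r across loci 0.980 to 0.982 on the log2 scale). Between miR-1247 and control libraries r was 0.959 to 0.961, and between E18 and adult libraries it was 0.741 to 0.744. Listed FPKM summed to 339224 to 392238 per library, and mitochondrial loci took 4.24% and 4.28% of it in E18, 12.9% and 19.2% in miR-1247 and 10.4% and 4.43% in control libraries. Read counts are not part of the table, so depth is unknown. All 11 RGC markers examined had values, and their summed level was 5229 and 5246 FPKM in E18 libraries, 2033 and 2060 FPKM in miR-1247 libraries and 3273 and 3332 FPKM in control libraries. Tubb3 (1412 and 1404 FPKM) and Sncg (1436 and 1451 FPKM) were the largest parts of the E18 sum. Not every marker was higher in E18, as given below. FPKM are fragments scaled for transcript length and library size, so levels of different genes can be compared, but only roughly. The Jund and Dusp1 loci are wider than the annotated genes, as given below. What that does to their levels was not tested.

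In E18 RGCs compared with adult control RGCs, the clearest differences were lower levels of Btg2, Junb, Egr1 and Jund. Fos and Dusp1 were slightly higher, and Fosb and Ier2 did not pass the test. In all, 6 of the 8 genes passed, 4 lower and 2 higher, where 70.1% of the 9987 genes tested passed, 29.8% lower and 40.2% higher. The share that passed was thus near that of all genes. The libraries of the groups did not overlap for 6 genes, 2 higher and 4 lower, against 85.5% of all genes (49% higher and 36.5% lower). Each fold change is a difference between group means of log2(FPKM + 1), given ± its standard error and tested with limma over all genes (two-sided, Benjamini-Hochberg) and called at an adjusted p below 0.05. The median gene was 0.16 higher in E18 on this scale, so each value also stands relative to that shift. In bulk libraries, fewer cells that express a gene and less RNA per cell cannot be told apart.

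**Figure D1:**
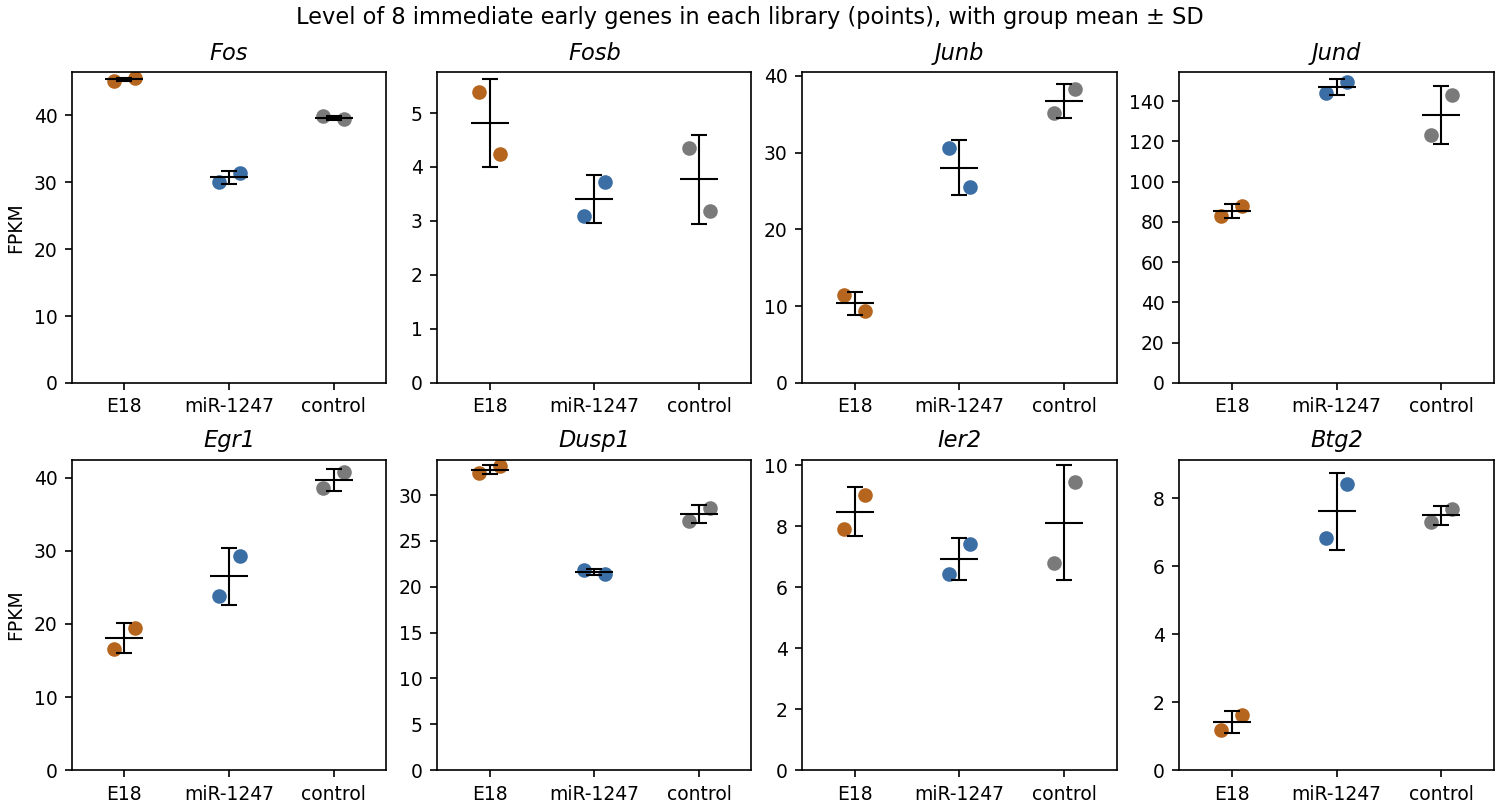
FPKM of each of the 8 genes in every library (points), with the group mean and SD (n = 2 libraries in each group), for E18, adult miR-1247 and adult control RGCs. Btg2 and Junb are lowest in both E18 libraries, whereas Fos and Dusp1 are lowest in both miR-1247 libraries.

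Of the FOS genes, Fos (chromosome 12, 85520664 to 85524047 in mm39, 4 exons) was at 45.2 and 45.6 FPKM in E18 libraries, at 30.05 and 31.4 FPKM in miR-1247 libraries and at 39.9 and 39.4 FPKM in control libraries. The 3 groups did not overlap, with E18 highest and miR-1247 lowest. Against control, the E18 value was higher by 0.19 ± 0.0704 (adjusted p = 0.0458), which is 0.03 above the median gene. Fos lost this call under all 4 other scalings of the libraries, for example at 0.04 (adjusted p = 0.648) under median ratio scaling, and without each of the 6 libraries in turn (adjusted p 0.0570 to 0.124). Fosb (chromosome 7, 19036621 to 19043976, 4 exons) was far weaker, at 5.38 and 4.24 FPKM in E18, 3.10 and 3.73 FPKM in miR-1247 and 4.35 and 3.19 FPKM in control libraries. Its E18 and control libraries overlapped, and the difference was 0.29 ± 0.205 (95% interval −0.20 to 0.78, adjusted p = 0.246). Fosb made up 10.6% and 8.50% of the summed Fos and Fosb FPKM in E18, 9.34% and 10.6% in miR-1247 and 9.85% and 7.49% in control libraries. That share overlapped between all groups.

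Both JUN genes of the set were lower in E18. Junb (chromosome 8, 85703539 to 85705347, a single exon), whose product is often a weaker activator than JUN, was at 11.4 and 9.33 FPKM in E18, 30.5 and 25.5 FPKM in miR-1247 and 35.1 and 38.3 FPKM in control libraries. All E18 values lay below all adult values, and Junb fell by 1.73 on the log2 scale in E18 against control (SE 0.135, adjusted p = 4.55e-05). Its mean level stood at percentile 38.7 of all genes in E18, 73.6 in miR-1247 and 79.5 in control RGCs. Jund, the JUN gene that is expressed most constantly in resting cells, was the highest of the 8 genes in every library. Its locus (chromosome 8, 71147342 to 71153354) begins before the single-exon gene that GENCODE annotates at 71151599 to 71153265. Jund was at 82.9 and 87.9 FPKM in E18, 144 and 150 FPKM in miR-1247 and 123 and 143 FPKM in control libraries. No E18 library reached an adult one, and Jund fell by 0.63 in E18 against control (SE 0.0812, adjusted p = 0.000487).

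Jun itself, which is outside the set and was taken from the list of other AP-1 genes, went the opposite way. It was at 65.8 and 66.3 FPKM in E18, 24.5 and 23.3 FPKM in miR-1247 and 19.8 and 19.5 FPKM in control libraries, a rise of 1.70 ± 0.0759 in E18 against control (adjusted p = 3.88e-06). The total of Jun, Junb and Jund was 160.1 and 164 FPKM in E18, 199 and 199 FPKM in miR-1247 and 178 and 201 FPKM in control libraries. Jun made up 41.1% and 40.5% of that total in E18, 12.3% and 11.7% in miR-1247 and 11.1% and 9.70% in control libraries. Jund made up 51.8% and 53.8% in E18, against 72.3% and 75.4% in miR-1247 and 69.1% and 71.2% in control libraries. Junb made up 7.14% and 5.71% in E18, 15.3% and 12.8% in miR-1247 and 19.7% and 19.1% in control libraries. E18 and adult shares did not overlap for any of the 3 genes. The shares were not tested, and an exact permutation test of 2 libraries against 2 cannot give a p below 0.333. Summed FOS genes relative to summed JUN genes stood at 0.316 and 0.305 in E18, 0.166 and 0.177 in miR-1247 and 0.248 and 0.212 in control libraries, again without overlap.

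**Figure D2:**
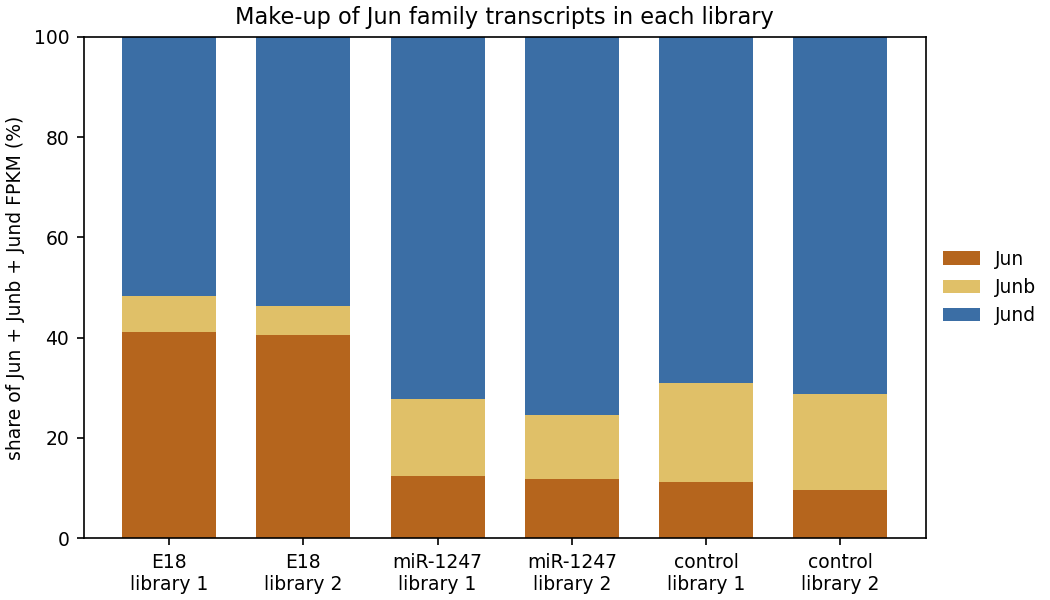
Share of Jun, Junb and Jund in their summed FPKM (percent, stacked) in each of the 6 libraries. Jun takes about 41% in both E18 libraries and 9.70% to 12.3% in the adult libraries, where Jund takes 69.1% to 75.4%.

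Egr1 (chromosome 18, 34992876 to 34998037, 2 exons) was at 16.6 and 19.5 FPKM in E18, 23.7 and 29.2 FPKM in miR-1247 and 38.6 and 40.7 FPKM in control libraries. The 3 groups did not overlap, with E18 lowest and control highest. Against control, Egr1 fell by 1.10 in E18 (SE 0.129, adjusted p = 0.000309). The ratio of its mean FPKM in E18 to that in control was 0.455.

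Of the regulators of signalling and growth, Btg2 (chromosome 1, 134002908 to 134006988, 2 exons) had the lowest ratio. It was at 1.19 and 1.64 FPKM in E18, 6.83 and 8.43 FPKM in miR-1247 and 7.31 and 7.70 FPKM in control libraries. Both E18 values were far below all adult values, and the ratio of mean FPKM in E18 to control was 0.188. On the log2 scale Btg2 fell by 1.82 (SE 0.180, adjusted p = 0.000139), which understates the change of a gene this weak, and the fall was 2.35 with a pseudocount of 0.1 FPKM. Dusp1 was at 32.4 and 33.1 FPKM in E18, 21.9 and 21.4 FPKM in miR-1247 and 27.2 and 28.6 FPKM in control libraries. The groups did not overlap and came in the same order as those of Fos. Against control Dusp1 rose by 0.22 ± 0.0804 (adjusted p = 0.0416), 0.06 above the median gene. It lost that call under all 4 other scalings, at 0.07 (adjusted p = 0.447) under median ratio scaling, and without each of the 6 libraries in turn (adjusted p 0.0574 to 0.145).

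The Dusp1 locus (chromosome 17, 26723764 to 26877738) has the same coordinates as that of Ergic1, on the opposite strand, and strand information is not stated for these libraries. Ergic1, a gene of vesicle transport, was at 51.2 and 60.3 FPKM in E18, 37.5 and 38.3 FPKM in miR-1247 and 37.0 and 37.1 FPKM in control libraries. It was higher in E18 than in control (0.57 ± 0.0922, adjusted p = 0.00144). GENCODE places Dusp1 itself at 26724564 to 26727493, a small part of the shared coordinates. Whether the 2 genes overlap was not examined, and without strand their reads could be told apart only outside any overlap. Ier2 (chromosome 8, 85387960 to 85389483, a single exon) was at 7.91 and 9.04 FPKM in E18, 6.45 and 7.42 FPKM in miR-1247 and 6.79 and 9.45 FPKM in control libraries. The control libraries lay on both sides of the E18 ones, and the difference between E18 and control was 0.07 ± 0.183 (95% interval −0.37 to 0.51, adjusted p = 0.755).

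The order of levels also differed between groups. In E18 RGCs it ran Jund, Fos, Dusp1, Egr1, Junb, Ier2, Fosb and Btg2 from high to low, and no neighbours overlapped between libraries. In miR-1247 RGCs Jund was followed by Fos, Junb, Egr1, Dusp1, Btg2, Ier2 and Fosb, where Fos overlapped Junb, Junb overlapped Egr1 and Btg2 overlapped Ier2. In control RGCs it ran Jund, Egr1, Fos, Junb, Dusp1, Ier2, Btg2 and Fosb, where Egr1 overlapped Fos and Ier2 overlapped Btg2. Btg2 stood at percentile 4.2 of all genes in E18, against 33.7 in miR-1247 and 32.0 in control RGCs.

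The comparison of E18 with adult miR-1247 RGCs uses the same E18 libraries and shows how E18 relates to adult cells with the mimic. Again 6 of the 8 genes passed, 4 lower and 2 higher, where 69.9% of all genes passed, 28.4% lower and 41.5% higher. Fos was higher in E18 by 0.55 ± 0.0704 (adjusted p = 0.000481) and Dusp1 by 0.58 ± 0.0804 (adjusted p = 0.000710). All 8 genes had groups that did not overlap, 4 higher and 4 lower, against 86.3% of all genes (50.4% higher and 35.9% lower). Fos and Dusp1 kept their calls in all 17 alternatives, unlike against control. Btg2 fell by 1.84 (SE 0.180, adjusted p = 0.000137). Junb fell by 1.35 (SE 0.135, adjusted p = 0.000150), and Jund fell by 0.78 (SE 0.0812, adjusted p = 0.000184). Egr1 fell by 0.53 (SE 0.129, adjusted p = 0.00944), a call lost without E18 library 1 (−0.42, adjusted p = 0.0662) and without miR-1247 library 2 (−0.38, adjusted p = 0.0546). For Fosb (0.39 ± 0.205, adjusted p = 0.127) and Ier2 (0.26 ± 0.183, adjusted p = 0.248) the libraries did not overlap and were higher in E18, but neither passed. Relative to the median gene, which was 0.19 higher in E18, Fos stood at 0.36, Dusp1 at 0.39, Egr1 at −0.72 and Btg2 at −2.03.

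**Figure D3:**
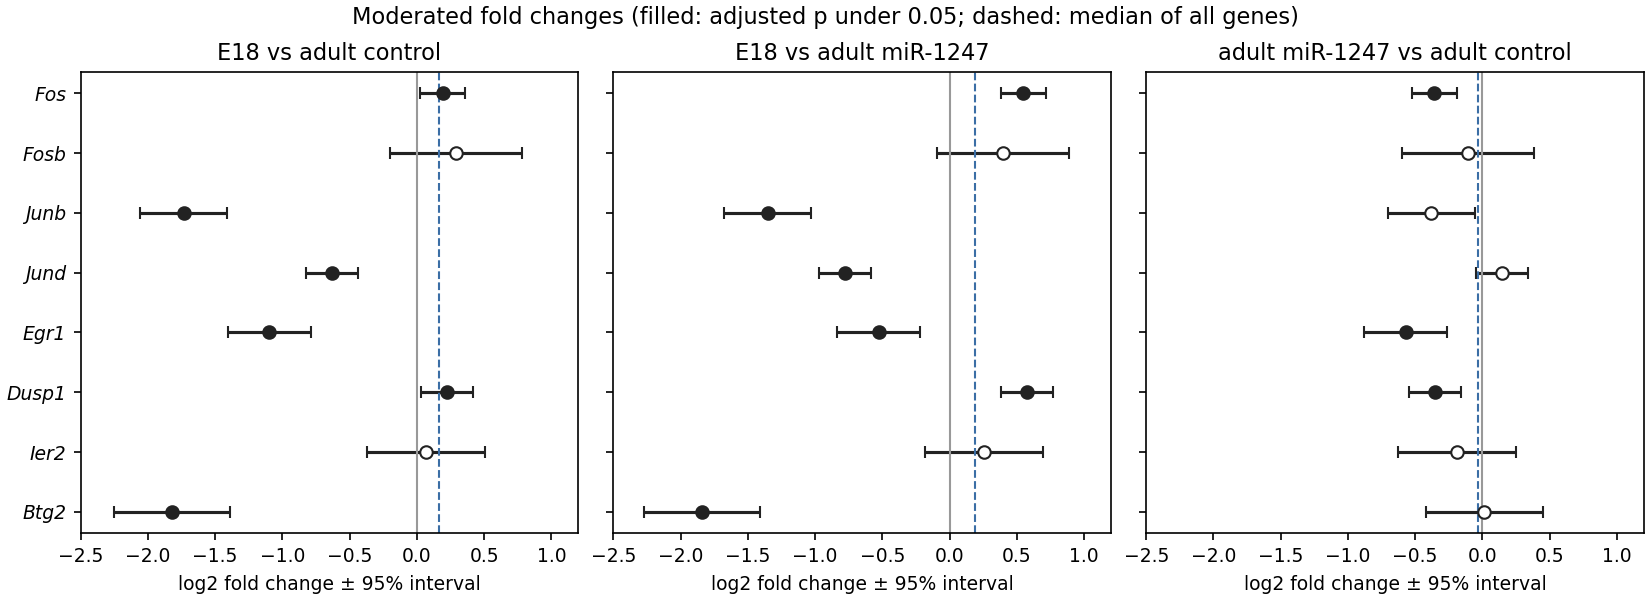
Log2 fold change with 95% interval of the 8 genes in the 3 comparisons, filled where the adjusted p was below 0.05, with the median of all genes dashed. Junb, Jund, Egr1 and Btg2 lie left of zero in both E18 comparisons, and Fos, Egr1 and Dusp1 are the filled points between adult groups.

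Between adult miR-1247 and adult control RGCs, which asks what differed with the mimic in place of the scrambled sequence, Fos, Egr1 and Dusp1 were lower with the mimic. These were 3 of the 8 genes, all lower, where 9.75% of all genes passed, 6.22% lower and 3.53% higher. Fos fell by 0.36 (SE 0.0704, adjusted p = 0.0314). Egr1 fell by 0.57 (SE 0.129, adjusted p = 0.0424), and Dusp1 fell by 0.35 (SE 0.0804, adjusted p = 0.0435). Mean levels with the mimic were 0.775 of control for Fos, 0.668 for Egr1 and 0.775 for Dusp1, and in each case both miR-1247 libraries were below both control libraries. Over the 8 genes the groups did not overlap for 5, 4 lower and 1 higher, against 57.7% of all genes (32.4% lower and 25.3% higher). None of the 3 passed without any 1 of the 6 libraries, with adjusted p from 0.0664 to 0.129 for Fos, 0.0760 to 0.162 for Egr1 and 0.0792 to 0.154 for Dusp1, while their directions held. Under the 4 other scalings Fos passed in 4, Egr1 in 2 and Dusp1 in 1. The mitochondrial share was highest in the miR-1247 libraries, as given above. Without mitochondrial genes Fos stood at −0.32 (adjusted p = 0.0427), Egr1 at −0.54 (adjusted p = 0.0507) and Dusp1 at −0.32 (adjusted p = 0.0605). The split of all calls rests on the scaling, with 353 genes higher and 621 lower as deposited, 460 and 527 under median ratio scaling and 136 and 771 with equal totals.

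The other 5 genes did not pass between the adult groups. Junb was lower with the mimic in both libraries (−0.38 ± 0.135, 95% interval −0.71 to −0.06, adjusted p = 0.125). Jund was higher in both miR-1247 libraries by a narrow margin (0.15 ± 0.0812, adjusted p = 0.292). Fosb (−0.11 ± 0.205, adjusted p = 0.776), Ier2 (−0.19 ± 0.183, adjusted p = 0.547) and Btg2 (0.02 ± 0.180, adjusted p = 0.968) overlapped between the groups. Ier2, the gene with the seed match shown above, had an interval from −0.63 to 0.25.

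Of all genes, 40.2% passed as higher and 29.8% as lower in E18 against control. With the mimic 3.53% passed as higher and 6.22% as lower. These shares stand beside each list of cell type markers here. Among RGC markers, 8 were higher and 3 lower in E18 than in control RGCs. Nefl, one of the 8, passed in 0 of 4 other scalings. The 3 lower ones were Thy1 (−1.28), Slc17a6 (−1.19) and Nefh (mean 4.80 against 84.0 FPKM). All 11 RGC markers were lower in miR-1247 than in control RGCs (Isl1 in 1 of 4 other scalings). Among them were Nefm (−1.16) and Pou4f1 (−0.80), and the summed levels are given above. Müller glia and astrocyte markers, of which 6 of 12 had values, summed to 182 and 181 FPKM in E18, 2017 and 1908 FPKM in miR-1247 and 1574 and 1230 FPKM in control libraries. In E18 against control 5 of the 6 were lower, while Vim, which other cells also express, was higher (4.41). The gap between the control sums lay in Glul, at 463.5 and 122 FPKM there. With the mimic Dkk3 (0.35) was higher, in 3 of 4 other scalings, and the other 5 did not pass. Amacrine markers (4 of 9) summed to 227 and 243 FPKM in E18, 394 and 434 FPKM in miR-1247 and 297 and 320.5 FPKM in control libraries. Pax6, which is not specific to amacrine cells, made up nearly all of the E18 sum (225.5 and 239 FPKM) and was higher in E18 than in control (0.47) and higher with the mimic (0.42). The other 3 markers were near 0 in E18 and lower than in control. Gad2 was at 0.682 and 1.03 FPKM in E18, 104 and 110.0 FPKM in miR-1247 and 81.2 and 82.5 FPKM in control libraries, and Slc6a9 (−4.08) and Npy (−4.30) fell likewise in E18. Rod and cone markers (3 of 13) summed to 6.41 and 5.57 FPKM in E18, 26.9 and 24.3 FPKM in miR-1247 and 46.8 and 45.6 FPKM in control libraries. Bipolar markers (3 of 9) summed to 12.7 and 11.3 FPKM in E18, 40.4 and 40.9 FPKM in miR-1247 and 25.1 and 30.04 FPKM in control libraries. Progenitor markers (2 of 12) were higher in E18, at 52.9 and 49.5 FPKM, against 19.6 and 22.4 FPKM in miR-1247 and 19.5 and 18.6 FPKM in control libraries. Microglia markers are not reported, and no endothelial marker of 9 was analysed here. The part of these shifts in the values of the immediate early genes was not tested.

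Other genes of the same response went both ways between E18 and control RGCs. Of 28 other immediate early genes tested, 9 rose and 10 fell in E18 against control, and 2 rose and none fell with the mimic. Over all genes 40.2% rose and 29.8% fell in E18, and 3.53% rose and 6.22% fell with the mimic, shares that stand beside every list below. In this list 13 fell in E18 under median ratio scaling, under quantile normalization and without mitochondrial genes. The list's median was −0.21 and 0.02, against 0.16 and −0.03 for all genes. Myc, a growth factor-induced transcription factor, rose to 13.0 ± 0.194 FPKM in E18, against 1.21 ± 0.720 FPKM in control (SD, n = 2), and Maff (2.28) and Pim1 (1.08) rose as well. Nptx2, a secreted pentraxin of synapses, was lower in E18 (−2.69) and higher with the mimic (0.73), and Ier3 (−2.15) and Tob1, a relative of Btg2 (−1.43), were lower in E18. Nfkbia, the inhibitor of NF-kB, was higher with the mimic (0.83, in 3 of 4 other scalings). Npas4, a factor induced by calcium entry in neurons, had 6.00 and 7.48 FPKM in E18, 7.01 and 6.25 FPKM in miR-1247 and 4.65 and 6.80 FPKM in control libraries, and did not pass.

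**Figure D4:**
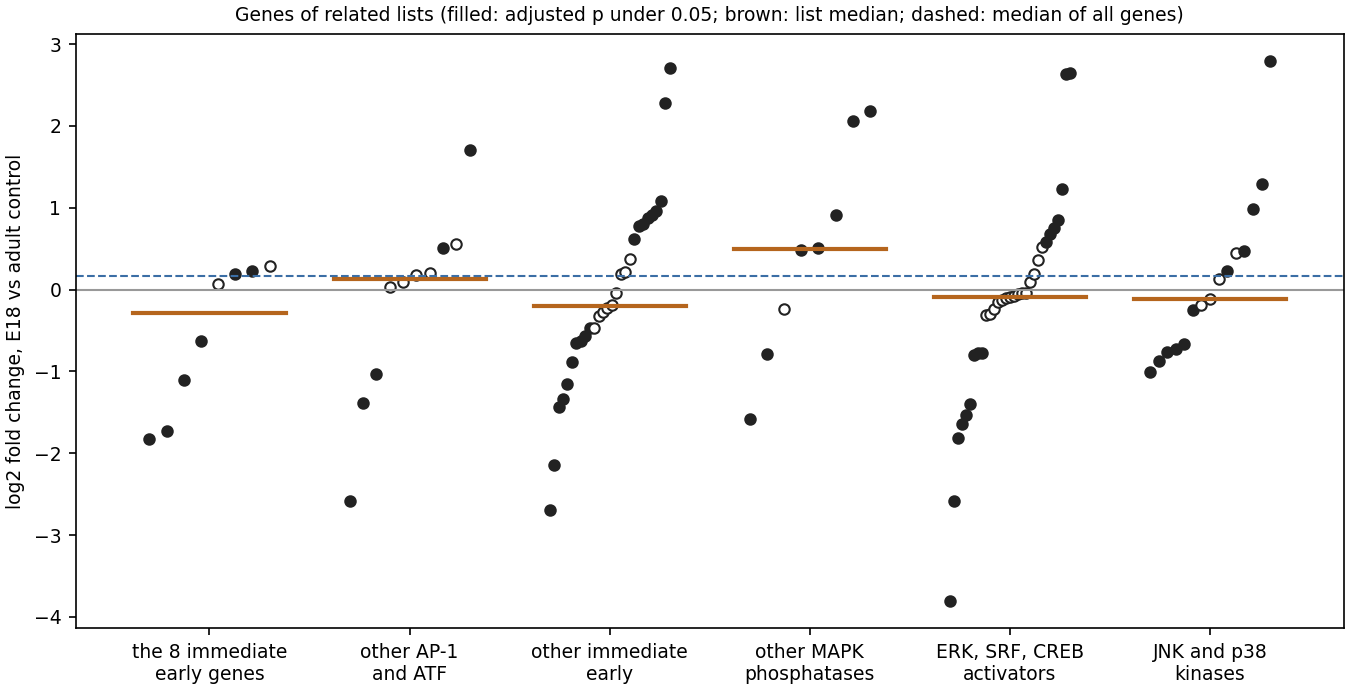
Log2 fold change in E18 against adult control for the tested genes of 6 lists (points, filled where the adjusted p was below 0.05), with list medians and the dashed median of all genes. Each list holds genes on both sides of zero, and list medians run from −0.28 for the 8 immediate early genes to 0.50 for the other MAP kinase phosphatases.

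Of 10 other AP-1 and ATF family genes, Jun and Atf4 (0.51) rose in E18 against control, and Jdp2, a repressor that pairs with JUN proteins (−2.59), Atf6 (−1.38) and Atf1 (−1.04) fell. With the mimic 2 fell, among them Atf5 (−0.69), and none rose. The Atf5 call held in 1 of 4 other scalings. Of 8 other MAP kinase phosphatases 5 rose in E18, led by Dusp4 (2.18) and Dusp6 (2.06), both of which act on ERK, and Dusp3 (−1.58) and Dusp10 (−0.79) fell, where 40.2% of all genes rose and 29.8% fell. Dusp5, one of the 5, passed in 0 of 4 other scalings. Dusp3 (−0.36) was the only one of them to pass with the mimic. Dusp4 was at 50.5 and 52.5 FPKM in E18, 8.13 and 8.85 FPKM in miR-1247 and 10.5 and 10.7 FPKM in control libraries, so its difference in E18 against control was much larger than that of Dusp1.

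Of 31 upstream activators in the ERK, SRF and CREB pathways 7 rose and 9 fell in E18 against control. Nras (2.64), which acts upstream of ERK, rose, as did the ERK-activated kinase gene Rps6ka3 (1.23) and Srf (0.86). Rps6ka4 (−3.81), Camk2a, a kinase of mature synapses (−2.59), and Map2k1, which phosphorylates ERK (−1.81), fell. With the mimic 1 of the 31 rose, Rps6ka4 (0.48, in 3 of 4 other scalings), and 1 fell. Of 15 JNK and p38 pathway genes 5 rose in E18, with Mapk11 (2.80) and Mapk8 (1.29) highest, and 6 fell, with Map2k4 (−1.01) lowest. Mapk8ip3, one of the 5, passed in 0 of 4 other scalings. With the mimic Mapk10 (−0.31) and Mapk8ip1 (−0.23) fell, calls that held in 1 and 0 of 4 other scalings. Of 13 genes of the CCR4-NOT complex, to which BTG2 binds, and of partners of that complex, 9 rose and 4 fell in E18. The shares of all genes were again 40.2% and 29.8%. At the ends of the list were Cnot10 (1.03) and Tob2 (−1.54), the latter a partner. Cnot3, one of the 9, passed in 0 of 4 other scalings there. Cnot3 (0.53) rose and Cnot11 (−0.50) fell with the mimic, in 3 and 1 of 4 other scalings.

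Heat shock genes, among them genes known to respond to tissue dissociation, went both ways, and differently from gene to gene. Of 12 tested, 3 rose and 5 fell in E18 against control, with Dnaja1 (0.82) highest and Hspb1 (−3.13) lowest. Hspa8, one of the 3 (0.22), passed in 0 of 4 other scalings. With the mimic Hsp90aa1 (−0.55) and Hsp90ab1 (−0.19) fell, Hsp90ab1 in 2 of 4 other scalings. Summed over the list they were at 2103 and 2127 FPKM in E18, 1797 and 1776 FPKM in miR-1247 and 2088 and 1987 FPKM in control libraries. Most of that sum was Hsp90ab1, Hspa8 and Hsp90aa1 (means of 822.5, 634.7 and 340.4 FPKM in E18), so it mainly follows those genes. Hspa1a was at 2.68 and 2.11 FPKM in E18, 3.58 and 5.04 FPKM in miR-1247 and 4.12 and 3.35 FPKM in control libraries. It did not pass between E18 and control. How long each preparation took is not given in the sources used here.

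Among 7870 other genes that passed in at least 1 comparison, those closest in pattern to each gene over the 6 libraries were found by Pearson r of log2(FPKM + 1). Fos was closest to Clvs1 (r = 0.999) and to the neurofilament gene Nefm (0.998). Nefm was at 556 and 546 FPKM in E18, 148 and 156 FPKM in miR-1247 and 346 and 338 FPKM in control libraries. Dusp1 was closest to Lrrc55 and Camk2d (both 0.998), Junb to Mbd5 (0.9998) and Trak1 (0.998), and Btg2 to Ddt and Sod2 (both 0.999). Egr1 was closest to the unnamed transcripts A930033H14Rik and 4930430F08Rik (both 0.997), and Jund to Npy (0.996) and Gpr176 (0.996). Fosb and Ier2 had looser best matches, Hspd1 (0.982) and Mrpl11 (0.933). With 3 groups of 2 libraries these values mostly reflect the order of the group means.

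**Figure D5:**
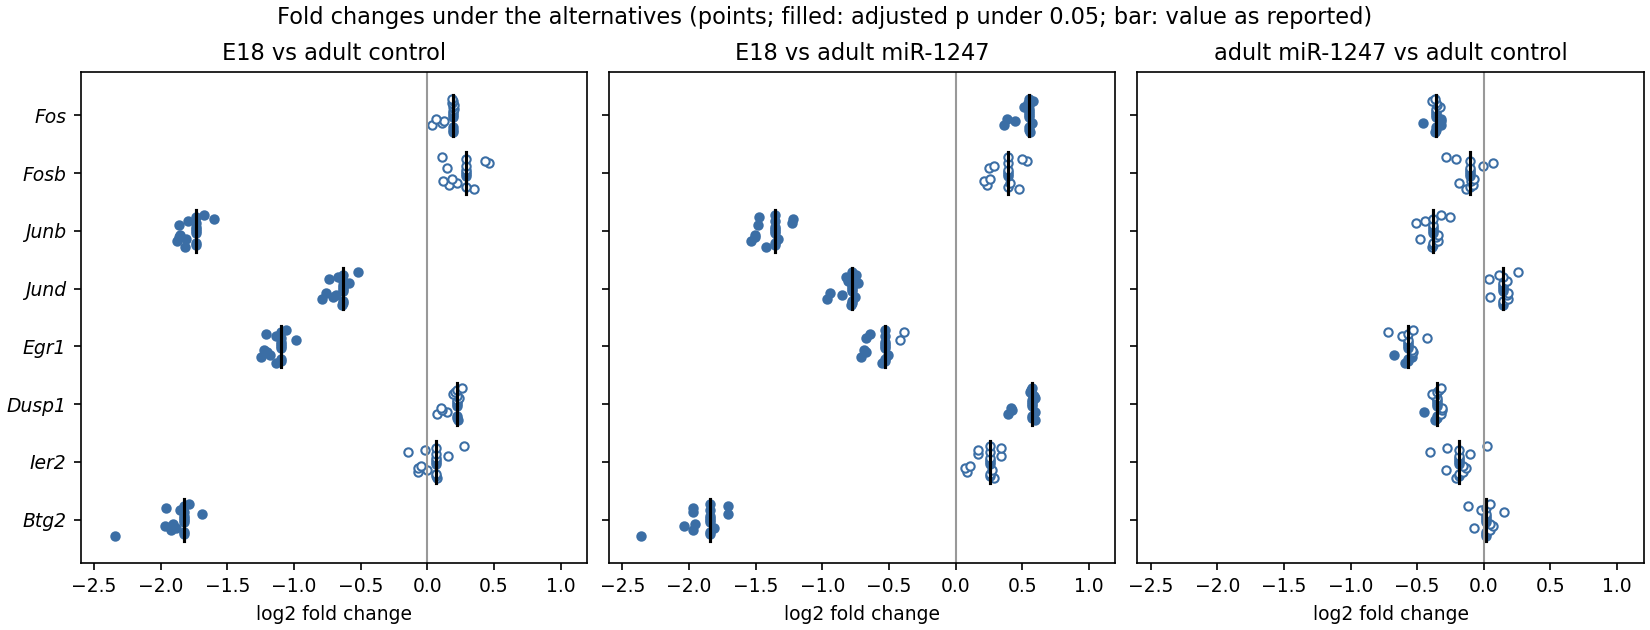
Log2 fold change of the 8 genes under each alternative (points, filled where the adjusted p was below 0.05) with the value as reported as a bar, for the 3 comparisons. Junb, Jund, Egr1 and Btg2 stay filled in every alternative of E18 against control, and Fos and Dusp1 are open in 13 of 17.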

How the data were processed

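Per the labels' protocols, poly-A RNA of purified mouse RGCs was made into TruSeq libraries and sequenced as paired reads. Per the submitters' processing notes, the authors mapped reads to mm39 with HISAT2 and computed FPKM with Cufflinks and Cuffdiff. Versions are not given in the sources used here. The deposited FPKM table had 1e-05 added to every value, which was subtracted. The authors' deposited log2 ratios were within 0.0021 of ratios recomputed from the FPKM values and were not used further. Loci of a gene name were summed (668 names had more than 1), and names that share all loci were taken once. The 9987 genes averaging 1 FPKM or more across libraries entered 1 limma 3.58.1 model of log2(FPKM + 1) with 3 group means and a variance trend (R 4.3.3). The fit was also run on simulated data with few changed genes and the same spread for every gene. These data differ in both respects, so that run says little about error rates here. Count tests could not be used, since FPKM are not counts. Sequences were read with Python 3.11.15. All 8 genes were described, with the ends of each related list; a few list genes are not reported here. The genes and lists were chosen with earlier results of these data known. Alternatives covered scaling, filters, pseudocount, loci, variance trend, replicate block and leaving out libraries. Coordinates are 1-based.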

Additional observations from a re-analysis of the deposited data

How the results depend on the processing

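Across 17 alternatives (16 for Fosb, which a minimum mean of 5 FPKM removed), none of the 8 genes' calls turned direction. In E18 against control the calls of Junb, Jund, Egr1 and Btg2 held in all 17, in a comparison where 70.1% of all genes passed as reported. Between adult groups, calls over all genes fell from 974 to 343 with no variance trend, 347 with only the 4 libraries compared, 584 with the replicate block and 121 to 242 without single libraries. The count among the 8 genes, 3 as reported, was 1 with quantile normalization, without mitochondrial genes and with the replicate block, and 0 with no variance trend, with only the 4 libraries compared and without any single library. The cause was not tested. Replicate numbers share only a number: same-numbered libraries did not deviate together (correlations −0.008 to 0.004). With the block Fos (adjusted p = 0.0705) and Dusp1 (0.0643) lost their E18 calls against control. Depth is unknown, and 2 libraries a group limit precision.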
